A study of Mus musculus with 9 samples.

Results

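The interferon-stimulated genes described here are 39 mouse genes that type I or type II interferon induces. They were taken by gene name from the FPKM table and joined to the count table by gene identifier. All 39 were found among the 34637 genes of the FPKM table, and all 39 were among the 20817 genes with enough reads to be tested. They were measured in 9 RNA-seq libraries of mouse back skin, 4 from Model mice and 5 from FJDHF mice. Both groups were C57BL/6 male mice of 6 to 8 weeks with dermatitis raised by DNCB, a small reactive molecule that sensitizes skin. The shaved back was painted with 1% DNCB to sensitize it and then repeatedly with 0.5% DNCB. After day 7 the FJDHF mice were fed the Fangji Dihuang formulation, a herbal decoction, every day, while Model mice received water in its place, and skin was collected on day 28. Skin without DNCB was not analysed here, so the level of these genes before dermatitis is not known from these libraries.

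The library columns carry the codes MR1, MR3, MR3_4, MR4_5 and MR5, and MXL1, MXL12, MXL3_4 and MXL_3, which are not explained in the sources used here. The 5 MR columns were taken as FJDHF and the 4 MXL columns as Model, since the labels list 5 treated and 4 untreated mice and the letters MX abbreviate a Chinese word meaning model. No column could be tied to a single mouse, and a code with more than 1 number might mark a pool, so n counts libraries. Every direction given below rests on this assignment, and values are listed in the order of the codes above.

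Interferons are secreted proteins that cells release on sensing a virus or on immune activation. Type I interferon binds the receptor pair Ifnar1 and Ifnar2, and type II interferon, Ifng, which comes mostly from T cells and natural killer cells, binds Ifngr1 and Ifngr2. Both signal through Janus kinases and STAT proteins to the nucleus, where STAT complexes and interferon regulatory factors bind short motifs in the promoters of the induced genes, the ISRE (interferon-stimulated response element) and the GAS (gamma-activated site). In skin, keratinocytes, fibroblasts, endothelial cells and immune cells can all respond.

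Promoter sequences show these motifs. The RefSeq promoter table (GRCm38.p6, 250 bases before to 50 bases after a gene's start) held 35 promoters of 29 of the 39 genes and none of Cxcl11, Dhx58, Mx1, Mx2, Oas1e, Oas2, Parp14, Rtp4, Usp18 or Zbp1. The core of the ISRE was searched as GAAANNGAAA and the GAS as TTCNNNGAA, each on both strands and with overlaps between matches allowed. The ISRE core was in 18 of the 35 promoters (51.4%), against 1131 of all 32851 promoters in the table (3.44%). The GAS letters were in 10 of the 35 promoters (28.6%), against 2726 of all promoters (8.30%). Bst2, Eif2ak2, Gbp5, Gbp7, Igtp and Oas1a had a promoter with both motifs, and the promoter of Isg15 held 3 overlapping ISRE cores. A match describes letters only and is not evidence of binding. Printed here, 5′ to 3′ along the gene, are the 250 bases before the start of the gene with the highest mean FPKM in each of 4 roles. The ISRE core is in capitals where it occurs.
Ifit3 (chr19:34583279-34583528, plus strand): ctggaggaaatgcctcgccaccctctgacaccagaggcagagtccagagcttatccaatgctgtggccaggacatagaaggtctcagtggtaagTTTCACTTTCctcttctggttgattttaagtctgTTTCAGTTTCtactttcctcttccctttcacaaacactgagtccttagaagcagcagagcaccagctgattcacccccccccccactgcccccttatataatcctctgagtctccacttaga
Ifi35 (chr11:101448162-101448411, plus strand): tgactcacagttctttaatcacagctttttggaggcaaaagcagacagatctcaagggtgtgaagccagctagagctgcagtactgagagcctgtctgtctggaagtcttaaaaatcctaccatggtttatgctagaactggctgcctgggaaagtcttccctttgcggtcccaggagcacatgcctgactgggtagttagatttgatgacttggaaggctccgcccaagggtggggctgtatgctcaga
Cxcl9 (chr5:92328080-92328329, minus strand): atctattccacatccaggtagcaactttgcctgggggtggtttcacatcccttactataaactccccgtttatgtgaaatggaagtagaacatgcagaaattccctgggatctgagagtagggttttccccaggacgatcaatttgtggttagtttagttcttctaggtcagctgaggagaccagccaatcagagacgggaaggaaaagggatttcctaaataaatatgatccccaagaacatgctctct
Gbp2 (chr3:142620413-142620662, plus strand): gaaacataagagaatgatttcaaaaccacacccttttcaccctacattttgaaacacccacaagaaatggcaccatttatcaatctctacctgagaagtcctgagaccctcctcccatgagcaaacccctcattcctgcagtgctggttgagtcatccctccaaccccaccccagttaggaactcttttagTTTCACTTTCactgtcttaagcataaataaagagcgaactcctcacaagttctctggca
In Ifit3 the ISRE core stood 156 and 122 bases before the start, and in Gbp2 59 bases before it, in each case as read on the opposite strand. Ifi35 and Cxcl9 had no ISRE core in these 250 bases, although Ifi35 had a GAS match 7 bases after its start.

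No interferon-stimulated gene passed the study's criteria for a difference between FJDHF and Model. With both an adjusted p below 0.05 and a 2-fold or larger difference required, edgeR called 0 of the 39 genes and 0 of all 20817 genes tested (0%). DESeq2 called 2 of all genes and none of the 39, and limma on FPKM called 0. At an unadjusted p under 0.05, 1 of the 39 was called, the Oas1 paralog Oas1e, against 326 of all genes (1.57%). That gene was higher in FJDHF, as were 161 of all genes (0.773%), while 0 of the 39 and 165 of all genes (0.793%) were lower at that threshold. For none of the 39 were the CPM values of the groups without overlap, against 107 of all genes (0.514%). The smallest exact permutation p among the 39 was 0.103, where the smallest p this design allows is 0.00794. Standard errors of the log2 fold changes ran from 0.18 to 0.93 with a median of 0.35, so that for 38 of the 39 genes the difference was under 2 standard errors.

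With all 9 libraries the fold changes leaned towards higher levels in FJDHF, but the size and the direction of this lean varied with single libraries. The log2 fold change was above 0 for 28 of the 39 genes, or 71.8%, against 44.1% of all tested genes. Its median was 0.11 over the 39 genes and -0.032 over all tested genes, with a range from -0.28 for Usp18 to 1.15 for Oas1e. Without the Model library MXL3_4, 18 of 39 were above 0 and the median was -0.046. The median was 0.0012 without MR3_4, 0.025 without MR1, 0.052 without MXL1, 0.19 without MR3 and 0.25 without MXL_3. It was 0.14 without MXL12, 0.15 without MR5 and 0.16 without MR4_5. With a T cell marker score as covariate, 18 of 39 were above 0 and the median was -0.017. With a skeletal muscle marker score as covariate, 27 of 39 were above 0 and the median was 0.094.

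**Figure D1:**
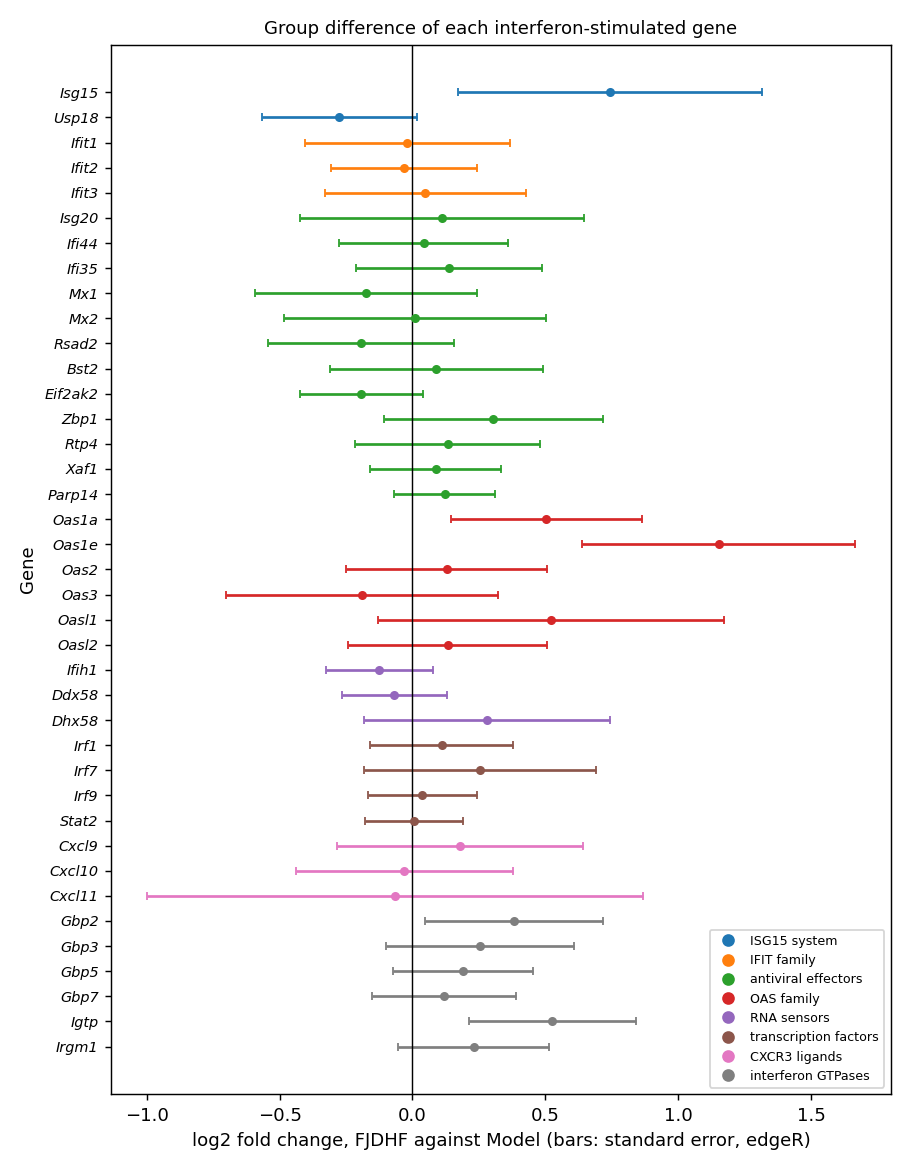
Log2 fold change of each of the 39 genes, FJDHF against Model, on the horizontal axis, with genes in rows and coloured by role. Points are edgeR estimates and bars their standard errors, with n = 5 and 4 libraries, and Oas1e at 1.15 lies farthest from 0.

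Single libraries were high or low for most of these genes at once, and such libraries were found in both groups. In MR1 and in MR3_4, both FJDHF, 37 of the 39 genes were above their own mean over the 9 libraries, and in the Model library MXL_3 35 were. In contrast, 9 genes were above their mean in MR3, 10 in MR5 and 2 in the Model library MXL3_4. In MR4_5, MXL1 and MXL12 the numbers were 15, 17 and 24. The map of deviations shows these as whole columns of 1 colour, with the high and the low columns found in both groups.

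**Figure D2:**
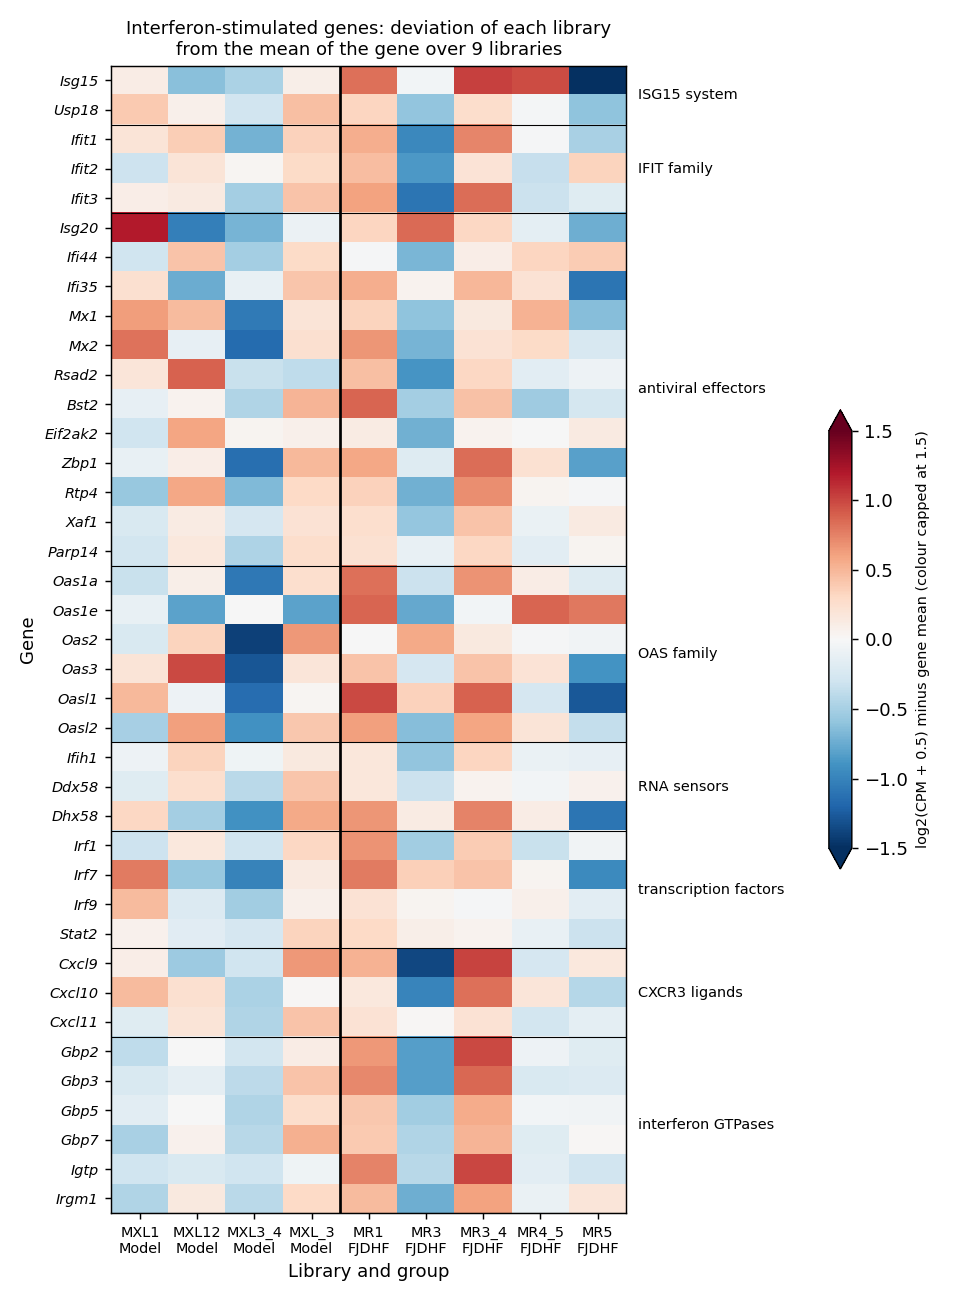
Log2(CPM + 0.5) of each of the 39 genes in each library minus the mean of that gene over the 9 libraries, with libraries in columns (4 Model, then 5 FJDHF) and genes in rows by role. Red is above and blue below the mean, colours end at 1.5, and the columns MR1, MR3_4 and MXL_3 are mostly red while MR3 and MXL3_4 are mostly blue.

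The mean of log2(CPM + 0.5) over the 39 genes, used as a library score, was 4.02, 3.13, 4.03, 3.56 and 3.255 in the FJDHF libraries and 3.57, 3.60, 3.00 and 3.795 in the Model libraries. The highest 2 and the second lowest libraries were FJDHF, and the lowest was Model. Group means were 3.60 ± 0.42 (SD, n = 5) and 3.49 ± 0.34 (SD, n = 4), a difference of 0.11 that is smaller than either SD. The summed FPKM of the 39 genes ran from 133 to 257 in FJDHF and from 130 to 205 in Model. A gene's highest library was MR3_4 for 15 of the 39 and its lowest was MR3 for 17 and MXL3_4 for 12.

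**Figure D3:**
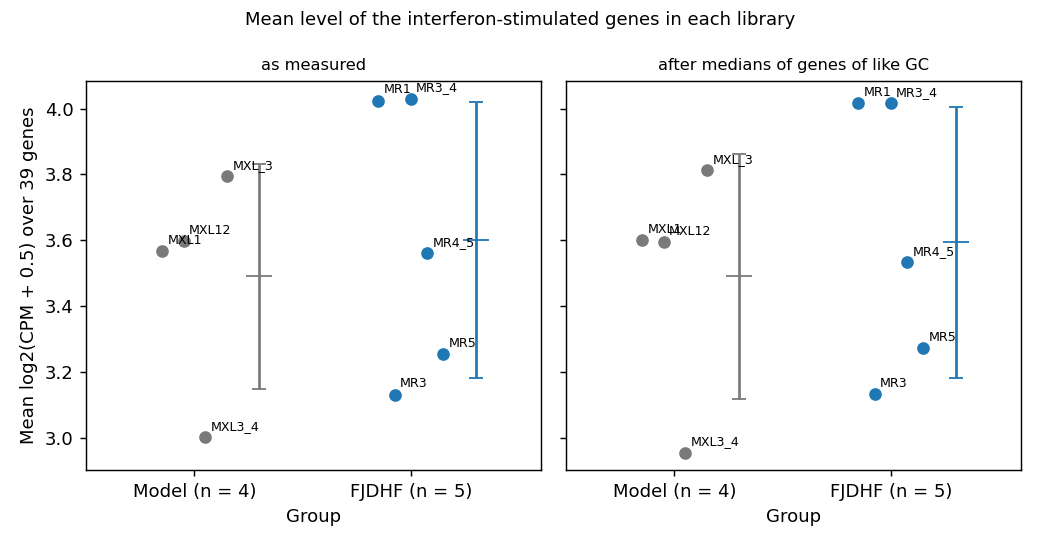
Mean log2(CPM + 0.5) over the 39 genes in each library (points, with the library code) and group mean with SD (bars), as measured on the left and after subtracting medians of genes of like GC content on the right. Both panels place MR1 and MR3_4 highest, MXL3_4 lowest and the groups across each other.

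The genes varied together across the libraries. Over the 9 libraries, the correlation of a gene with the mean of the other 38 had a median of 0.76, was above 0.5 for 33 of the 39 genes and ran from 0.073 for Oas1e to 0.945 for Ifit1. These correlations describe 9 points, and the libraries also differed in tissue composition and base composition. The cause of the shared variation was not tested. From the lowest to the highest library the median span was 3.28-fold over the 38 genes with more than 3 counts in every library. The spans ran from 1.59-fold for Stat2 to 11.5-fold for Isg15. Over the 18771 tested genes with more than 3 counts in every library the same median was 2.57-fold.

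Marker genes of other cells in the biopsy also differed between the libraries. Summed over 8 T cell markers (Cd3e, Cd3d, Cd3g, Cd2, Cd5, Cd4, Cd8a and Cd8b1), the level was 45.9, 16.9, 30.2, 25.5 and 28.2 CPM in FJDHF and 25.6, 30.2, 21.6 and 30.3 CPM in Model, highest in MR1 and lowest in MR3. Summed over 8 macrophage markers it was 1423, 1094, 1418, 603 and 743 CPM in FJDHF and 703, 1151, 530 and 1320 CPM in Model, highest in MR1, MR3_4 and MXL_3. MR3, the second lowest library for the 39 genes, had the lowest T cell sum but a macrophage sum above those of MR4_5, MR5, MXL1 and MXL3_4. Of the 6 genes listed for plasmacytoid dendritic cells, Clec10a, which macrophages and other dendritic cells also express, was by far the most abundant at 52.2 to 170 CPM. Siglech, the more specific marker, was measured at 6.57, 3.37, 7.37, 4.09 and 3.92 CPM in FJDHF and 2.21, 3.02, 3.78 and 3.18 CPM in Model, highest in MR3_4 and MR1. Markers of these lists were above 3 counts in every library except Cox6a2 and Klk1 of the plasmacytoid list, each at or under it in 1 library. The log2 fold change was above 0 for 7 of 8 T cell markers, for 8 of 8 macrophage markers and for 5 of 6 plasmacytoid markers. Of these 22, only Siglech had an unadjusted p under 0.05. Among other immune lists, it was above 0 for 6 of 8 cytotoxic and natural killer cell markers and 4 of 4 B cell markers. The log2 fold change was above 0 for 2 of 8 dendritic and Langerhans cell markers and 0 of 8 neutrophil markers. In each of these last lists 1 marker was lower at an unadjusted p under 0.05. The part of any of these cell types in the levels of the 39 genes was not tested. In whole skin, fewer cells of a type and less RNA per cell cannot be told apart.

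As a check of the tissue, summed keratinocyte, fibroblast, muscle and hair follicle markers were present in all libraries and uneven between them. Skeletal muscle markers (7 genes) summed to 1414 to 8774 CPM in FJDHF and 477 to 13126 CPM in Model. Markers of differentiated keratinocytes (7 genes) summed to 7564 to 15451 CPM in FJDHF and 2962 to 8442.5 CPM in Model, with 4 of 7 at an unadjusted p under 0.05, all higher in FJDHF. The 8 neutrophil markers summed to 41.0 to 161 CPM in FJDHF and 26.5 to 662 CPM in Model, with the highest level in MXL12. Total counts ran from 74648669 to 79474215 per library, and 3 counts of a gene, taken as the floor, were 0.0375 to 0.0415 CPM. Of the 39 genes, 1 was at or under the floor in any library, namely Cxcl11 with 0 counts in MXL3_4.

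Libraries also differed by the GC content of transcripts, which touches the GC-rich members. Over 15707 genes with a mean above 1 CPM, the median deviation from the gene mean in the highest 20% by GC content minus that in the lowest 20% was 0.27, 0.72, 0.19, 0.030 and -0.94 on the log2 scale in FJDHF and 0.88, -0.95, -0.46 and 0.19 in Model. MR5, MXL12 and MXL3_4 were thus low in GC-rich transcripts, and MXL1 and MR3 high. The 20 members with the higher GC content had a median deviation of -0.34 in MR5, against -0.015 for the 19 with the lower. In MR3 both sets were below their means, at -0.22 and -0.72. After subtracting the median of genes of like GC content, the count of members above their mean was 38 in MR1, 38 in MR3_4, 34 in MXL_3, 7 in MR3, 8 in MR5 and 1 in MXL3_4. The difference between the group means of the score was then 0.10, and the median correlation of a gene with the other 38 was 0.81.

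**Figure D4:**
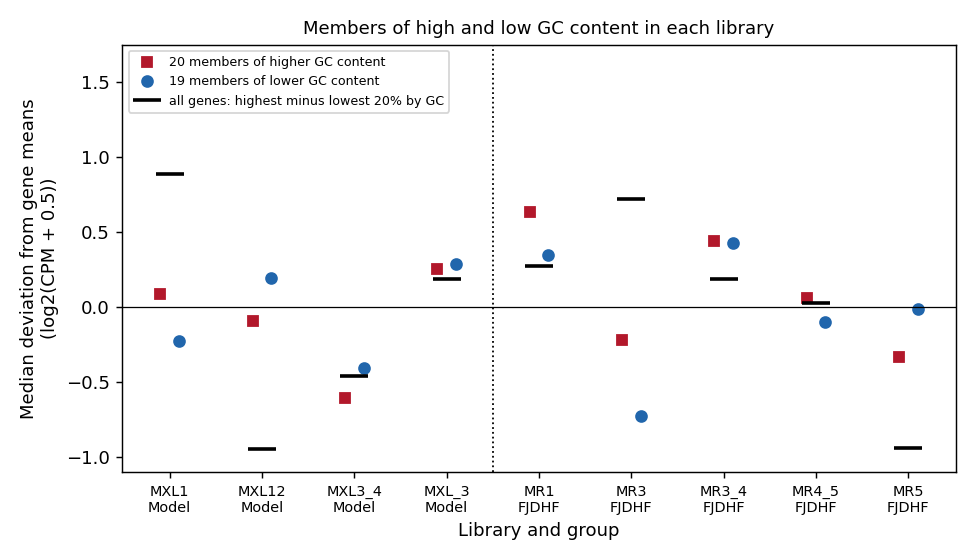
Median deviation from gene means on the log2(CPM + 0.5) scale for the 20 members of higher (squares) and 19 of lower (circles) GC content in each library, beside the difference between the highest and lowest 20% of all genes by GC content (bars). The bars lie between -0.95 in MXL12 and 0.88 in MXL1, and in MR3 the bar is above 0 while both sets of members are below.

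Levels per length are given in FPKM. Mean FPKM over the 9 libraries ran from 0.0464 for Cxcl11 to 16.5 for Gbp2 and was above 1 for 33 of the 39 genes. After Gbp2 came Ifit3 at 12.8, Igtp at 11.3 and Ifi35 at 10.7 FPKM, whose library values overlap throughout. At the low end, above Cxcl11, were Oas3 at 0.418, Mx2 at 0.644 and Oasl1 at 0.652 FPKM.

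**Figure D5:**
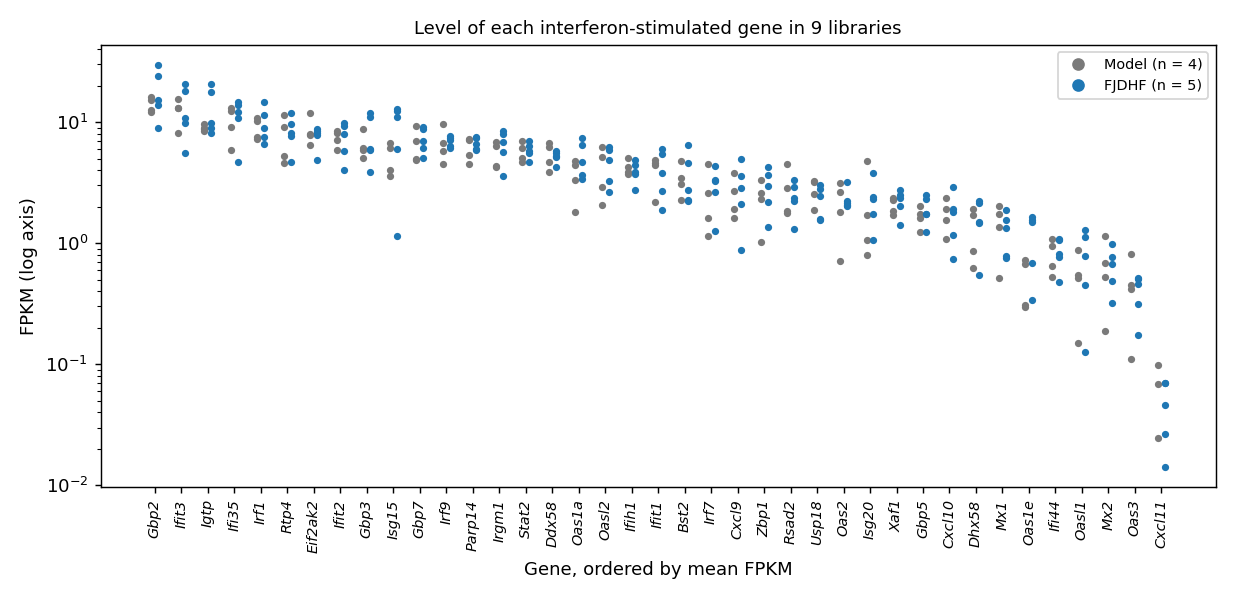
FPKM of each of the 39 genes in each library on a log axis, with genes ordered by their mean, Model libraries in grey (n = 4) and FJDHF libraries in blue (n = 5). Gbp2 leads at a mean of 16.5 FPKM, Cxcl11 is lowest, its library at 0 is not drawn, and the colours overlap for every gene.

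Isg15 encodes a ubiquitin-like protein that is joined to other proteins, and Usp18 the enzyme that removes it and dampens type I receptor signalling. Isg15 (chr4:156199455-156200796, minus strand) was measured at 8.22, 4.29, 9.5, 9.17 and 0.828 CPM in the FJDHF libraries and 4.82, 2.69, 3.04 and 4.74 CPM in the Model libraries. For Isg15, 3 FJDHF libraries lay above every Model library, MR3 lay among them and MR5 below them all. The means of Isg15 were 6.4 ± 3.75 CPM (SD, n = 5) in FJDHF and 3.82 ± 1.12 CPM (SD, n = 4) in Model (log2 fold change 0.74, SE 0.57, unadjusted p = 0.223, adjusted p = 1.0), with an exact permutation p of 0.579. For Isg15, leaving out 1 library gave log2 fold changes from 0.56 (without MR3_4) to 1.03 (without MR5). Without MR5, Isg15 had an unadjusted p of 0.0127 and was the only 1 of the 39 genes under 0.05. The adjusted p of Isg15 was not under 0.05 in any alternative. Its deviation from its mean in MR5 was -1.89, and -1.70 after subtracting the median of genes of like GC content. Usp18 (chr6:121245906-121270917, plus strand) was measured at 8.95, 4.5, 8.58, 6.93 and 4.47 CPM in the FJDHF libraries and 9.37, 7.49, 5.66 and 9.83 CPM in the Model libraries. The log2 fold change of Usp18 had the opposite sign to that of Isg15, within its standard error. Usp18 was highest in MXL_3 and MXL1 and lowest in MR5 and MR3. Across libraries, Usp18 and Isg15 were both above their means in MR1, MR3_4, MXL1 and MXL_3. Both were below them in MR3, MR5 and MXL3_4, and they were on opposite sides in MR4_5 and MXL12. The means of Usp18 were 6.68 ± 2.15 CPM (SD, n = 5) in FJDHF and 8.09 ± 1.91 CPM (SD, n = 4) in Model (log2 fold change -0.28, SE 0.29, unadjusted p = 0.37, adjusted p = 1.0), with an exact permutation p of 0.31. For Usp18, leaving out 1 library gave log2 fold changes from -0.41 (without MR1) to -0.16 (without MR5). Part of Usp18 overlaps the noncoding gene Gm44148 on the other strand.

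The IFIT genes encode proteins that bind viral RNA through tetratricopeptide repeats. Of Ifit1, Ifit2 and Ifit3, 1 had a log2 fold change above 0, and the range was -0.032 to 0.049. Ifit3 (chr19:34583531-34588731, plus strand) had the highest mean FPKM of them, though not the highest CPM. It was measured at 33.6, 9.94, 39.6, 17.4 and 19.2 CPM in the FJDHF libraries and 23.6, 24.1, 15.2 and 29.7 CPM in the Model libraries. Its lowest and its highest library, MR3 and MR3_4, were both FJDHF. The means of Ifit3 were 24 ± 12.2 CPM (SD, n = 5) in FJDHF and 23.2 ± 5.97 CPM (SD, n = 4) in Model (log2 fold change 0.049, SE 0.38). On log2(CPM + 0.5) the difference of Ifit3 had the opposite sign, -0.073, with an exact permutation p of 0.865. For Ifit3, leaving out 1 library gave log2 fold changes from -0.21 (without MR3_4) to 0.22 (without MR3). Ifit1 was the member most like the rest, with a correlation of 0.945 over the 9 libraries.

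The 12 antiviral effectors include proteins that act on viral RNA, translation or release. Of the 12 genes, 9 had a log2 fold change above 0 and 3 below, with a median of 0.088 and a range from -0.19 to 0.305. None had an unadjusted p under 0.05. Ifi35 (chr11:101448407-101458698, plus strand) had the highest mean FPKM of these effectors, though not the highest CPM. It was measured at 27.1, 19, 26.3, 21.4 and 8.31 CPM in the FJDHF libraries and 21.8, 10.7, 17 and 24.6 CPM in the Model libraries. Both its lowest values were in libraries poor in GC-rich transcripts, MR5 and MXL12. The means of Ifi35 were 20.4 ± 7.55 CPM (SD, n = 5) in FJDHF and 18.5 ± 6.08 CPM (SD, n = 4) in Model (log2 fold change 0.14, SE 0.35), with an exact permutation p of 0.786. For Ifi35, leaving out 1 library gave log2 fold changes from -0.051 (without MXL12) to 0.34 (without MR5). Its exons overlap those of the antisense gene Gm11626.

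Isg20 (chr7:78913424-78920307, plus strand), a 3'-5' exonuclease of RNA, had the widest range of log2(CPM + 0.5) among the effectors and was measured at 4.83, 7.16, 4.78, 3.35 and 2.05 CPM in the FJDHF libraries and 9.2, 1.59, 2.13 and 3.5 CPM in the Model libraries. Its 2 highest values, in MXL1 and MR3, were in the libraries richest in GC-rich transcripts, and its own GC content was 57.4%. Its deviations there were 1.19 and 0.85, and 0.44 and 0.26 after subtracting the median of genes of like GC content. The means of Isg20 were 4.43 ± 1.91 CPM (SD, n = 5) in FJDHF and 4.1 ± 3.49 CPM (SD, n = 4) in Model (log2 fold change 0.11, SE 0.53), with an exact permutation p of 0.611. Its correlation with the other 38 genes was 0.18. For Isg20, leaving out 1 library gave log2 fold changes from -0.16 (without MR3) to 0.88 (without MXL1). Between its lowest and highest library Isg20 spanned 5.79-fold in CPM, and Mx2 spanned 5.87-fold.

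Eif2ak2 (chr17:78852564-78882573, minus strand) is the kinase PKR, which stops translation on binding double-stranded RNA. It was measured at 45.8, 25.3, 43.8, 42.1 and 46.4 CPM in the FJDHF libraries and 34.2, 63.9, 43.5 and 44.4 CPM in the Model libraries. Eif2ak2 was highest in MXL12 and lowest in MR3, and 4 of the 5 FJDHF libraries lay close together. The means of Eif2ak2 were 40.7 ± 8.75 CPM (SD, n = 5) in FJDHF and 46.5 ± 12.5 CPM (SD, n = 4) in Model (log2 fold change -0.19, SE 0.23, unadjusted p = 0.424, adjusted p = 1.0), with an exact permutation p of 0.508. For Eif2ak2, leaving out 1 library gave log2 fold changes from -0.31 (without MXL1) to 0 (without MXL12). Rsad2 (chr12:26442746-26456452, minus strand), which encodes viperin, an enzyme that makes a chain-terminating nucleotide, was measured at 15.3, 5.77, 13.8, 9.87 and 10.4 CPM in the FJDHF libraries and 12.6, 20.8, 8.67 and 8.41 CPM in the Model libraries. It too peaked in MXL12 and was lowest in MR3. The means of Rsad2 were 11 ± 3.72 CPM (SD, n = 5) in FJDHF and 12.6 ± 5.78 CPM (SD, n = 4) in Model (log2 fold change -0.19, SE 0.35), with an exact permutation p of 0.675. For Rsad2, leaving out 1 library gave log2 fold changes from -0.36 (without MR1) to 0.16 (without MXL12). The dynamin-like GTPase genes Mx1 and Mx2 had log2 fold changes of -0.175 and 0.010, and Bst2, whose protein tethers virions to the cell, one of 0.090. Zbp1, a sensor of Z-form nucleic acid, had the largest value of the effectors at 0.305 (SE 0.41).

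The OAS genes encode enzymes that make 2'-5' oligoadenylate, which activates RNase L, or relatives without that activity. Of the 6 members, 5 had a log2 fold change above 0, with a median of 0.32. Oas1e (chr5:120786226-120795530, minus strand), an Oas1 paralog, was measured at 3, 0.625, 1.35, 2.98 and 2.79 CPM in the FJDHF libraries and 1.26, 0.595, 1.41 and 0.595 CPM in the Model libraries. In MR1, MR4_5 and MR5 Oas1e was above all Model libraries, while MR3 and MR3_4 lay within their range. The means of Oas1e were 2.15 ± 1.09 CPM (SD, n = 5) in FJDHF and 0.965 ± 0.431 CPM (SD, n = 4) in Model (log2 fold change 1.15, SE 0.51, unadjusted p = 0.0477, adjusted p = 1.0), with an exact permutation p of 0.103. The unadjusted p of Oas1e was 0.0986 without MR1, 0.099 without MR4_5, 0.0909 without MR5, 0.0507 without MXL1, 0.112 without MXL12 and 0.111 without MXL_3. With the T cell score as covariate it was 0.104. For Oas1e, leaving out 1 library gave log2 fold changes from 0.98 (without MXL12) to 1.39 (without MXL3_4). Oas1e was also the member least like the rest, with a correlation of 0.073. Mouse Oas1 genes are near copies, so reads may have been split between them.

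Oas1a (chr5:120896256-120907521, minus strand), an active synthetase, had the highest mean FPKM of the list, though not the highest CPM. It was measured at 15, 6.48, 13.5, 8.93 and 7.13 CPM in the FJDHF libraries and 6.44, 8.77, 3.66 and 9.89 CPM in the Model libraries. The highest 2 values were in MR1 and MR3_4 and the lowest in MXL3_4. The means of Oas1a were 10.2 ± 3.82 CPM (SD, n = 5) in FJDHF and 7.19 ± 2.76 CPM (SD, n = 4) in Model (log2 fold change 0.50, SE 0.36, unadjusted p = 0.19, adjusted p = 1.0), with an exact permutation p of 0.222. For Oas1a, leaving out 1 library gave log2 fold changes from 0.29 (without MXL3_4) to 0.70 (without MXL_3). Oas3 (chr5:120753098-120777661, minus strand), the longest synthetase and the member of this list with the widest range of log2(CPM + 0.5), was measured at 3.94, 2.29, 3.97, 3.31 and 1.27 CPM in the FJDHF libraries and 3.29, 6.07, 0.864 and 3.25 CPM in the Model libraries. Both extremes of Oas3 were Model libraries, MXL12 and MXL3_4. The means of Oas3 were 2.96 ± 1.16 CPM (SD, n = 5) in FJDHF and 3.37 ± 2.13 CPM (SD, n = 4) in Model (log2 fold change -0.19, SE 0.51), with an exact permutation p of 0.952. For Oas3, leaving out 1 library gave log2 fold changes from -0.51 (without MXL3_4) to 0.26 (without MXL12). Oasl1 spanned more in CPM, 10.3-fold against 7.03-fold for Oas3, and was measured at 3.56, 2.09, 3.26, 1.21 and 0.344 CPM in the FJDHF libraries and 2.37, 1.44, 0.426 and 1.59 CPM in the Model libraries. Oasl1 was lowest in MR5 and MXL3_4 and had a GC content of 56.3%. Its deviations there were -1.27 and -1.14, and -0.62 and -0.87 after subtracting the median of genes of like GC content.

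The 3 RNA sensors are the helicases that detect viral RNA in the cytosol. Ddx58, which encodes RIG-I, and Ifih1, which encodes MDA5, had log2 fold changes of -0.069 and -0.125, and Dhx58, which encodes their regulator LGP2, one of 0.28. Ddx58 (chr4:40203773-40239825, minus strand) was measured at 43.4, 30.7, 40.0, 37.4 and 40.5 CPM in the FJDHF libraries and 34.1, 46.2, 29.1 and 51.8 CPM in the Model libraries. The highest and the lowest library of Ddx58 were both Model. The means of Ddx58 were 38.4 ± 4.78 CPM (SD, n = 5) in FJDHF and 40.3 ± 10.5 CPM (SD, n = 4) in Model (log2 fold change -0.069, SE 0.20), with an exact permutation p of 0.841. For Ddx58, leaving out 1 library gave log2 fold changes from -0.20 (without MXL3_4) to 0.075 (without MXL_3). Dhx58 (chr11:100694884-100704271, minus strand) was measured at 7.49, 4.97, 7.98, 4.92 and 1.86 CPM in the FJDHF libraries and 5.74, 3.03, 2.19 and 6.96 CPM in the Model libraries. Dhx58 was lowest in MR5, MXL3_4 and MXL12, the libraries poor in GC-rich transcripts, and had a GC content of 53.9%. Its deviations there were -1.09, -0.90 and -0.51. After subtracting the median of genes of like GC content they were -0.81, -0.81 and -0.28. The means of Dhx58 were 5.44 ± 2.45 CPM (SD, n = 5) in FJDHF and 4.48 ± 2.24 CPM (SD, n = 4) in Model (log2 fold change 0.28, SE 0.46), with an exact permutation p of 0.643. For Dhx58, leaving out 1 library gave log2 fold changes from 0.055 (without MXL3_4) to 0.57 (without MXL_3).

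Of the transcription factors, Stat2 and Irf9 are parts of an ISRE-binding complex, Irf1 responds to type II interferon, and Irf7 drives type I interferon genes. All 4 had a log2 fold change above 0, from 0.0060 for Stat2 to 0.25 for Irf7, and none had an unadjusted p under 0.05. Irf1 (chr11:53770014-53777323, plus strand) was measured at 61.5, 26.6, 50.3, 30.4 and 36.8 CPM in the FJDHF libraries and 30.8, 42.9, 31 and 47.6 CPM in the Model libraries. Its 2 highest values, MR1 and MR3_4, and its 2 lowest, MR3 and MR4_5, were all FJDHF. The means of Irf1 were 41.1 ± 14.5 CPM (SD, n = 5) in FJDHF and 38.1 ± 8.49 CPM (SD, n = 4) in Model (log2 fold change 0.11, SE 0.27), with an exact permutation p of 0.825. For Irf1, leaving out 1 library gave log2 fold changes from -0.088 (without MR1) to 0.24 (without MXL_3). Irf7 (chr7:141262706-141266481, minus strand) was measured at 17.4, 12.9, 13.5, 10.2 and 4.9 CPM in the FJDHF libraries and 17.5, 6.52, 4.71 and 10.9 CPM in the Model libraries. Irf7 was highest in MXL1 and MR1 and lowest in MXL3_4 and MR5. The means of Irf7 were 11.8 ± 4.64 CPM (SD, n = 5) in FJDHF and 9.9 ± 5.67 CPM (SD, n = 4) in Model (log2 fold change 0.25, SE 0.44), with an exact permutation p of 0.563. For Irf7, leaving out 1 library gave log2 fold changes from 0.022 (without MXL3_4) to 0.68 (without MXL1). Stat2 and Irf9 were steadier, spanning 1.59-fold and 2.02-fold between libraries.

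The CXCR3 ligands Cxcl9, Cxcl10 and Cxcl11 attract activated T cells. Of the 3, 1 had a log2 fold change above 0. Cxcl9 (chr5:92321347-92328079, minus strand) was measured at 11.4, 2.74, 16.3, 6.5 and 8.8 CPM in the FJDHF libraries and 8.39, 5.19, 6.26 and 12.5 CPM in the Model libraries. Cxcl9 spanned 5.96-fold, with both its highest library, MR3_4, and its lowest, MR3, in FJDHF. The means of Cxcl9 were 9.16 ± 5.12 CPM (SD, n = 5) in FJDHF and 8.09 ± 3.25 CPM (SD, n = 4) in Model (log2 fold change 0.18, SE 0.46), with an exact permutation p of 0.913. For Cxcl9, leaving out 1 library gave log2 fold changes from -0.13 (without MR3_4) to 0.47 (without MXL_3). Cxcl10 had a log2 fold change of -0.030 (SE 0.41) and, like Cxcl9, was highest in MR3_4 and lowest in MR3. Cxcl11 had at most 30 counts in any library and a standard error of 0.93.

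The interferon GTPases, the guanylate-binding proteins and the immunity-related GTPases, attack vacuoles that hold microbes. All 6 had a log2 fold change above 0, from 0.12 for Gbp7 to 0.53 for Igtp, with a median of 0.24 and none at an unadjusted p under 0.05. Gbp2 (chr3:142620602-142638008, plus strand) was measured at 65, 22.9, 82.2, 38.8 and 36.2 CPM in the FJDHF libraries and 31.3, 40.8, 33.9 and 44.3 CPM in the Model libraries. MR3_4 and MR1 were above every Model library and MR3 was below them all. The means of Gbp2 were 49 ± 24 CPM (SD, n = 5) in FJDHF and 37.6 ± 6.01 CPM (SD, n = 4) in Model (log2 fold change 0.38, SE 0.34, unadjusted p = 0.282, adjusted p = 1.0), with an exact permutation p of 0.5. For Gbp2, leaving out 1 library gave log2 fold changes from 0.12 (without MR3_4) to 0.54 (without MR3).

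Igtp (chr11:58199556-58207591, plus strand), an immunity-related GTPase, was measured at 38.2, 16.8, 45.7, 20.2 and 18.5 CPM in the FJDHF libraries and 18.3, 19.3, 18.3 and 21.6 CPM in the Model libraries. The Model libraries lay within 18.3 to 21.6 CPM, and MR1 and MR3_4 stood above them while MR3 was the lowest of all. The means of Igtp were 27.9 ± 13.2 CPM (SD, n = 5) in FJDHF and 19.4 ± 1.59 CPM (SD, n = 4) in Model (log2 fold change 0.53, SE 0.31, unadjusted p = 0.124, adjusted p = 1.0), with an exact permutation p of 0.373. For Igtp, leaving out 1 library gave log2 fold changes from 0.28 (without MR3_4) to 0.64 (without MR5). Igtp shares 162 exon bases with Irgm2 on the same strand. Irgm1 (chr11:48861968-48871683, minus strand), a regulator of these GTPases and of autophagy, was measured at 49.6, 21.2, 54.2, 33.3 and 40.6 CPM in the FJDHF libraries and 25.8, 39.3, 26.8 and 43.7 CPM in the Model libraries. MR3_4 and MR1 were again the highest and MR3 the lowest. The means of Irgm1 were 39.8 ± 13.1 CPM (SD, n = 5) in FJDHF and 33.9 ± 9 CPM (SD, n = 4) in Model (log2 fold change 0.23, SE 0.28, unadjusted p = 0.438, adjusted p = 1.0), with an exact permutation p of 0.556. For Irgm1, leaving out 1 library gave log2 fold changes from 0.093 (without MR3_4) to 0.38 (without MXL_3).

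Upstream of these genes, the counts of interferon transcripts were at or near 0 in these libraries. Of 21 interferon genes listed, 16 had 0 counts in every library, among them Ifnb1, for which a count of 0 allows up to 0.0415 CPM in the library of smallest size. Ifng was the only 1 of the 21 that passed the filter on low counts, with 98 counts over the 9 libraries. It was measured at 0.385, 0, 0.193, 0.164 and 0.153 CPM in the FJDHF libraries and 0.0885, 0, 0.0516 and 0.263 CPM in the Model libraries. MR3 and MXL12 had 0 counts of Ifng, and MR1 had the most, 29 counts. The log2 fold change of Ifng was 0.82 (SE 1.14, unadjusted p = 0.485), with an exact permutation p of 0.373.

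The receptors were more abundant per length, at a mean of 13.3 FPKM for Ifnar1 and 36.2 FPKM for Ifngr1 against 0.101 FPKM for Ifng. Of 6 receptor genes, 3 had a log2 fold change above 0 and none had an unadjusted p under 0.05. Ifnar1 was measured at 89.9, 78.2, 82.5, 81.1 and 80.9 CPM in the FJDHF libraries and 77.5, 90.2, 71.1 and 95.9 CPM in the Model libraries (log2 fold change -0.020, SE 0.13). Ifnar2 was measured at 40.7, 28.8, 41.7, 27.3 and 38.4 CPM in the FJDHF libraries and 26.9, 42, 27.7 and 42.9 CPM in the Model libraries (log2 fold change 0.021, SE 0.22). Both chains overlapped between the groups. Ifngr1, the ligand-binding chain for Ifng, was measured at 111, 100.3, 130.1, 79.3 and 95.2 CPM in the FJDHF libraries and 87.3, 125, 101 and 151 CPM in the Model libraries (log2 fold change -0.17, SE 0.20). Its partner Ifngr2 was measured at 82.8, 79.1, 96, 78.1 and 47.1 CPM in the FJDHF libraries and 64.7, 75.6, 71.7 and 88.9 CPM in the Model libraries (log2 fold change 0.027, SE 0.20). The lowest value of Ifngr2 was in MR5 and the highest of Ifngr1 in MXL_3.

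Of 8 genes of the relay from the receptors and its feedback, none had an unadjusted p under 0.05. Jak1 was measured at 288, 238, 291, 273 and 344 CPM in the FJDHF libraries and 224, 368, 257 and 353 CPM in the Model libraries (log2 fold change -0.067, SE 0.19). Jak2, which serves the Ifng receptor, was measured at 83.9, 77.8, 95.5, 92 and 122 CPM in the FJDHF libraries and 85.2, 188, 109 and 103 CPM in the Model libraries (log2 fold change -0.36, SE 0.24). Jak2 had its highest value in MXL12, without which the log2 fold change was -0.072. Tyk2, the kinase of the type I receptor, was measured at 26.4, 32.2, 21.5, 22.3 and 12.5 CPM in the FJDHF libraries and 37.2, 12.5, 19.2 and 29.4 CPM in the Model libraries (log2 fold change -0.10, SE 0.34). Tyk2 was highest in MXL1 and lowest in MXL12 and MR5, which are respectively the library richest in GC-rich transcripts and the poorest ones. Socs1, a feedback inhibitor of the kinases, was measured at 0.133, 0.512, 0.303, 0 and 0.115 CPM in the FJDHF libraries and 0.43, 0.212, 0.129 and 0.111 CPM in the Model libraries (log2 fold change -0.054, SE 0.94), from 0 to 41 counts a library.

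The wider lists held no gene at an unadjusted p under 0.05. Of 14 genes that sense nucleic acid or relay its signal, 5 had a log2 fold change above 0 and none had an unadjusted p under 0.05. The 2 of smallest p were Trim25, a ubiquitin ligase that activates RIG-I (log2 fold change 0.22, SE 0.19, unadjusted p = 0.27, adjusted p = 1.0), and Irf8, a myeloid transcription factor (log2 fold change 0.44, SE 0.41, unadjusted p = 0.313, adjusted p = 1.0). Trim25 was measured at 80.2, 50.7, 64.2, 66.9 and 91.2 CPM in the FJDHF libraries and 56.9, 72.7, 55.5 and 57.6 CPM in the Model libraries. Irf8 was measured at 21.9, 8.55, 18.5, 11.1 and 7.87 CPM in the FJDHF libraries and 5.48, 10.8, 7.11 and 16.8 CPM in the Model libraries. Irf8 was highest in MR1, MR3_4 and MXL_3, the libraries with the highest macrophage marker sums. Of 66 other interferon-induced genes 64 were tested, 31 of them with a log2 fold change above 0, a median of -0.006 and none at an unadjusted p under 0.05. Apol9b was measured at 3.97, 0.55, 2.16, 2.75 and 1.01 CPM in the FJDHF libraries and 1.15, 0.582, 0.426 and 1.52 CPM in the Model libraries (log2 fold change 1.18, SE 0.60, unadjusted p = 0.0776, adjusted p = 1.0). Oas1f, another Oas1 paralog, was measured at 45.2, 21.6, 33.8, 30.5 and 27.5 CPM in the FJDHF libraries and 36.8, 14.2, 17.8 and 17 CPM in the Model libraries (log2 fold change 0.56, SE 0.31, unadjusted p = 0.101, adjusted p = 1.0). Every Model library except MXL1 was below every FJDHF library for Oas1f. Of 9 genes of antigen processing, 6 had a log2 fold change above 0 with a median of 0.012. Psmb8, a subunit of the immunoproteasome, was measured at 28.9, 13.5, 32.5, 18.6 and 13.6 CPM in the FJDHF libraries and 23.5, 15.4, 16.1 and 22.2 CPM in the Model libraries (log2 fold change 0.15, SE 0.31). Psme1, a subunit of its activator, was measured at 46.6, 39.5, 39.9, 30.2 and 30.9 CPM in the FJDHF libraries and 65.3, 35.9, 36.4 and 31.5 CPM in the Model libraries (log2 fold change -0.18, SE 0.24). Psme1 was highest in MXL1, without which its log2 fold change was 0.11.

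The genes whose pattern over the 9 libraries was most like the mean of the 39, among 20678 tested genes outside the interferon lists, were named by Pearson correlation. Gm12250, an immunity-related GTPase gene, had 0.955 and was measured at 6.39, 2.24, 7.15, 3.63 and 2.19 CPM in the FJDHF libraries and 3.3, 3.73, 1.68 and 3.35 CPM in the Model libraries. Was, which encodes the Wiskott-Aldrich syndrome protein of blood cells, had 0.94 and was measured at 16.2, 8.61, 15.1, 9.24 and 6.75 CPM in the FJDHF libraries and 9.45, 10.1, 6.5 and 14.2 CPM in the Model libraries. Both were highest in MR1 and MR3_4. Ifi208 had 0.92 and Phf11b 0.91, and Tmem158 had 0.92, which was 0.20 after the GC adjustment. With the GC adjustment the other 4 had 0.94, 0.78, 0.92 and 0.93 in the order Gm12250, Was, Ifi208 and Phf11b. As the highest of 20678 values over 9 libraries, these correlations describe the choice and carry no test.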

How the data were processed

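RNA of mouse back skin was sequenced in 4 Model libraries and 5 FJDHF libraries, from polyadenylated RNA with a strand-marking kit read from both ends. The authors deposited raw read counts per gene, as whole numbers, for 55401 genes, and FPKM values, which they scaled for gene length and depth, for the 34637 genes with a count in any library. The submitters' processing notes name HISAT, StringTie, DESeq2 and the build mm10, without versions, and whether counting used strand is not given in the sources used here. Genes that overlap another gene or have near copies (the Oas1, Gbp, Ifit and Mx genes) may therefore share reads. A further 9 columns of counts in the FPKM table were not used. Positions are those of the deposited table (GRCm38).

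Counts were filtered with filterByExpr (20817 genes left), scaled by TMM and compared with the quasi-likelihood test of edgeR 4.0.16 in R 4.3.3, with no covariate and Benjamini-Hochberg adjustment over all tested genes. CPM are counts scaled to a common size of the TMM-scaled library size. For single genes an exact permutation test (two-sided, on log2(CPM + 0.5)) ran over the ways to place 9 libraries in groups of 4 and 5 (scipy 1.17.1). Total counts of 74648669 to 79474215 per library made counting error small for most of the 39 genes, and PCR copies are not independent molecules, so the floor of 3 counts covers counting error only. No 2 libraries repeated each other, since the counts of the 36 pairs differed by more than sampling noise, with chi-square values between 135 and 641 for each degree of freedom. Nothing ties a column to a separate mouse, so p-values set the group difference against the spread between these libraries. They assume that the libraries are independent, which could not be checked.

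The 39 genes, the other gene lists and the tests were chosen with earlier results of these data known. Values in every library were given for the 8 members of smallest unadjusted p, for the member of each role with the highest mean FPKM and the one with the widest range of log2(CPM + 0.5), for the 3 largest and 3 smallest log2 fold changes, for 11 set genes of the pathway and for the 2 genes of smallest p in each other pathway list. A gene that this rule selects is not reported here. Alternatives were DESeq2 1.42.0 (size factors, and its Wald test), limma 3.58.1 on log2(FPKM + 1), no filter, at least 10 counts in every library, a replicate block, marker scores of skeletal muscle or T cells as covariate, other pseudocounts and leaving out each library. GC offsets (20 bins) and robust dispersions were added after seeing the data. Transcript GC content, length and exon overlaps came from the annotation of the same build, and promoters from RefSeq. The edgeR, DESeq2 and limma fits were checked on simulated counts, for limma as CPM rather than FPKM. The exact permutation test was not checked in this way. Figures were drawn with matplotlib 3.10.9 in Python 3.11.15.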

Additional observations from a re-analysis of the deposited data

Results flagged for a closer look

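The level of Eif2ak2 in FJDHF was flagged because 1 library stood far from the other 4. In MR3 it was 4.69 on the log2(CPM + 0.5) scale, against 5.41 in the nearest library, and this gap was 0.838 of the whole range of the group. Among 40 such comparisons (20 measures in 2 groups) it was the only 1, and chance alone flags about 1 in 20, or 2.0 of the 40. MR3 was also the lowest library for 17 of the 39 genes. The cause was not tested.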

How the results depend on the processing

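No alternative called any of the 39 genes by the study's criteria, and over all genes the number called was 0 except with DESeq2's Wald test, which called 2. Genes at an unadjusted p under 0.05 numbered 905 without the filter, where 34637 genes were tested, and 217 (without MR4_5) to 734 (without MXL1) when 1 library was left out. Of the 39, the number at an unadjusted p under 0.05 was 0 with limma on FPKM and with the T cell covariate, and 0 to 1 when 1 library was left out. That 1 gene was Oas1e without MR3, MR3_4 or MXL3_4, and Isg15 without MR5. Genes above 0 numbered 18 with the T cell covariate and 18 to 32 when 1 library was left out, and the median log2 fold change was -0.017 and -0.046 to 0.247. The cause was not tested.

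With a replicate block from the code numbers that both groups share (1, 3 and 3_4), only 6 libraries enter. The deviations of same-numbered libraries from their group means correlated at 0.225, 0.118 and -0.220. Whether such libraries are paired cannot be told from these values, since libraries of different number were not compared. The block left 256 genes at an unadjusted p under 0.05 and 0 of the 39, with a median of 0.298. The log2 fold change of Oas3 was then 0.615, of Ddx58 0.021, of Cxcl9 -0.050, of Rsad2 0.138, of Ifnar1 0.044, of Ifngr1 0.044 and of Socs1 0.634, each of the opposite sign to the fit without the block.

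The sign also turned with limma on FPKM for Ifit3 (-0.037) and Ifnar1 (0.015), and with the T cell covariate for Ifit3 (-0.225), Irf1 (-0.046), Cxcl9 (-0.157), Ifng (-0.082), Ifnar2 (-0.034) and Psmb8 (-0.017). When 1 library was left out, the log2 fold change ran from -0.208 to 0.220 for Ifit3, -0.051 to 0.337 for Ifi35, -0.158 to 0.883 for Isg20, -0.507 to 0.261 for Oas3, -0.197 to 0.075 for Ddx58, -0.088 to 0.236 for Irf1, -0.134 to 0.470 for Cxcl9 and -0.358 to 0.157 for Rsad2. The same ranges were -0.090 to 0.052 for Ifnar1, -0.086 to 0.136 for Ifnar2, -0.067 to 0.159 for Ifngr2, -0.184 to 0.045 for Jak1, -0.316 to 0.174 for Tyk2, -0.713 to 0.494 for Socs1, -0.294 to 0.113 for Psme1 and -0.049 to 0.276 for Psmb8. Differences on log2(CPM + 0.5) ran from -0.206 to 0.389 for Cxcl9, -0.183 to 0.091 for Ddx58, -0.011 to 0.546 for Dhx58, -0.139 to 0.379 for Ifi35, -0.291 to 0.195 for Ifit3, -0.094 to 0.205 for Irf1, -0.014 to 0.724 for Isg20, -0.472 to 0.284 for Oas3 and -0.315 to 0.104 for Rsad2. Of the 18 members with values in every library, 10 kept the sign of their log2 fold change under all alternatives run for it. GC offsets, chosen after seeing the data, left 412 genes and 1 of the 39 at an unadjusted p under 0.05, with 26 of the 39 above 0, and robust dispersions left 319 genes. Counting error bears most on Cxcl11, Ifng and Socs1, with 0 to 41 counts a library, and the median standard error over the 39 genes was 0.35 on the log2 scale.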
